A study of Mus musculus with 31 samples.

Results

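The genes described here encode parts of the motile cilium and of the transport that builds it. They were chosen by name on the array: every gene symbol that starts with Dnah (or its older spelling Dnahc), Dnaic, Tekt or Rsph followed by a number, or Ift followed by 2 or 3 digits, together with Foxj1. The array carried 39 such genes, and 37 of them were kept because their brightest probe lay well above background on at least 0.5 of the 29 arrays used. The 37 genes are 12 axonemal dynein heavy chains, 2 dynein intermediate chains, 4 tektins, 6 radial spoke genes, 12 intraflagellar transport genes and Foxj1. Rsph6a (above background on 4 arrays) and Tekt3 (on 6 arrays) were not kept. Of the kept genes, Dnah1 (19 of 29 arrays) and Ift140 (24 of 29) were not above background everywhere, and the other 35 were above it on every array.

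Motile cilia of the airways are built by multiciliated cells and sweep mucus out of the lung. Dynein arms bend the paired microtubules of the axoneme, radial spokes pass signals to the arms from the central pair, tektins are filament proteins of the microtubule doublets, and Foxj1 is a forkhead transcription factor needed for the motile cilium programme. Intraflagellar transport carries cargo along the axoneme and serves motile and primary cilia alike, so its genes are active in many lung cells. Many of the motility genes mark ciliated cells, though some, such as Dnah8 and Dnah17, are best known from sperm.

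RNA (200 ng) from the whole lung of a single mouse was labelled with Cy3 and hybridised to each of 31 1-colour Agilent arrays. The animals were C57BL/6 females, 6 weeks old. All mice were anaesthetised with xylazine and ketamine and received 200 µl into the tail vein. The 13 control mice had physiological serum (here saline) and the 18 others had oleic acid at 1.2 µl per g of body weight, which injures the lung. Lungs were taken at 1, 1.5, 3, 4, 18 or 24 h, with 3 animals per time given oleic acid. Saline was given to 3 animals at the 1 h time and to 2 at all later times. Replicate 3 of oleic acid at 1.5 h (spike-in slope 1.66) and replicate 2 at 3 h (slope 0.751) were left out, against slopes of 0.937 to 1.06 on the other arrays, so 2 oleic acid arrays remain at 1.5 and at 3 h. On 5 of the 29 arrays 72.2% to 82.4% of spots lay above background, and on the others 51.2% to 66.2%. The saline arrays of 1.5 h were split over slides 1 and 2 and the oleic acid arrays of 3 h over slides 2 and 3. At 18 h saline lungs were on slide 3 and oleic acid lungs on slide 4. No 18 h difference between treatments can therefore be told apart from slide. Levels below are log2 of the processed signal minus the 75th percentile of the array, so a difference of 1 is a doubling of signal. Differences come from 1 limma fit to 23192 features, with 95% intervals in parentheses and Benjamini-Hochberg adjusted p-values over all features. In whole lung, fewer ciliated cells and less RNA per cell cannot be told apart.

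Promoters are shown for members whose upstream sequence holds letters that regulators of cilia genes recognise. RFX factors bind X-boxes, of which the letters GTTGCC or their reverse complement GGCAAC were searched, and forkhead factors were represented by TGTTTAC or GTAAACA. The search covered 250 bases before each RefSeq start site (build GRCm38.p6), and 29 of the 37 members matched a promoter there. The X-box letters were present in 9 of these 29 genes (31%), against 11.8% of 27025 genes with a promoter. The forkhead letters were present in 1 of 29 members (3.45%) and in 3.54% of all genes. A match is a description of letters, not of a bound site. The stretches below run 5′ to 3′ on the strand of the gene, with the motif in capitals.
Tekt1, chr11:72361883-72361947, minus strand: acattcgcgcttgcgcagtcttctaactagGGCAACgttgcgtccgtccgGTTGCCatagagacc
Tekt2, chr4:126325689-126325740, minus strand: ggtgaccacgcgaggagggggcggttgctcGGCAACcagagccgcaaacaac
Dnaic2, chr11:114727363-114727418, plus strand: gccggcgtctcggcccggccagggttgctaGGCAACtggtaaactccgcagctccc
Dnah10, chr5:124725035-124725084, plus strand: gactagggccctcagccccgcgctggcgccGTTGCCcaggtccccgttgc
Ift57, chr16:49699177-49699242, plus strand: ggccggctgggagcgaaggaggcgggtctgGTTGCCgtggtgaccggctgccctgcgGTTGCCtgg
Ift27, chr15:78174082-78174120, minus strand: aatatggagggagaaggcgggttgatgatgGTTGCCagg
Dnah17, chr11:118129384-118129450, minus strand: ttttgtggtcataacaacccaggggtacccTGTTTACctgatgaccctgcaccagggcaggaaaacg
Counted from the start site, the motif nearest to it began at -15 in Tekt1, -22 in Tekt2, -26 in Dnaic2, -20 in Dnah10 and -9 in Ift27, with the first listed start site used for both tektins. In Ift57 the motifs began at -87 and -60. Dnah7a, Dnah7b and Ift140 held the X-box letters farther upstream, at -200, -163 and -109. The forkhead letters of Dnah17 began at -201. At 3 h the median oleic acid minus saline difference was 0.28 over the 9 genes with the X-box letters and 0.10 over the 20 with a promoter but no match. At 18 h these medians were 0.13 and 0.09, and at 24 h 0.14 and -0.02. At 1 h they were 0.19 and 0.21, at 1.5 h -0.05 and -0.03, and at 4 h -0.02 and -0.14. The ranges of the genes with and without the letters overlapped at all 6 times.

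Foxj1 lay higher in oleic acid than in saline lungs at 3 h, by 0.42 on the log2 scale, and late in the course, by about 0.5. No comparison passed the adjusted threshold of 0.05. Its probe spans chr11:116192214-116192273 (build mm9, minus strand) and begins ggagagactaatatagtgaatgtagttata. Saline lungs measured 1.41, 1.86 and 1.71 at 1 h, 2.14 and 2.33 at 1.5 h, and 1.59 and 1.79 at 3 h. They measured 1.86 and 1.69 at 4 h, 1.63 and 2.04 at 18 h, and 2.06 and 1.36 at 24 h. The saline arrays of 1.5 h were the highest of the saline lungs and those of 24 h lay farthest apart.
Oleic acid lungs measured 1.86, 1.69 and 2.19 at 1 h, 1.80 and 2.14 at 1.5 h, and 1.94 and 2.28 at 3 h. They measured 1.91, 1.88 and 1.90 at 4 h, 2.47, 2.10 and 2.46 at 18 h, and 2.32, 2.18 and 2.18 at 24 h. At 3, 4, 18 and 24 h every oleic acid array lay above every saline array, whereas at 1 and 1.5 h the groups overlapped. The same held for 17.6% of all features at 3 h, 8.12% at 4 h, 5.83% at 18 h and 5.92% at 24 h. Over 18 and 24 h the mean difference was 0.51 (0.20 to 0.82), with an adjusted p of 0.947 in limma. The differences were 0.51 (0.07 to 0.94) at 18 h and 0.52 (0.08 to 0.95) at 24 h, against 0.13 (-0.09 to 0.36) over 1 to 4 h. Among the early times they were 0.26 at 1 h, -0.26 at 1.5 h, 0.42 at 3 h and 0.12 at 4 h. The change of the difference from early to late times was 0.38, with an interval that reached 0, and did not pass the test. At 18 h the treatment and the slide cannot be told apart, because slide 3 held the controls and slide 4 the treated lungs. At 24 h all arrays shared slide 4, and there the difference was 0.17 without saline 24 h replicate 2 and 0.87 without saline 24 h replicate 1.

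**Figure D1:**
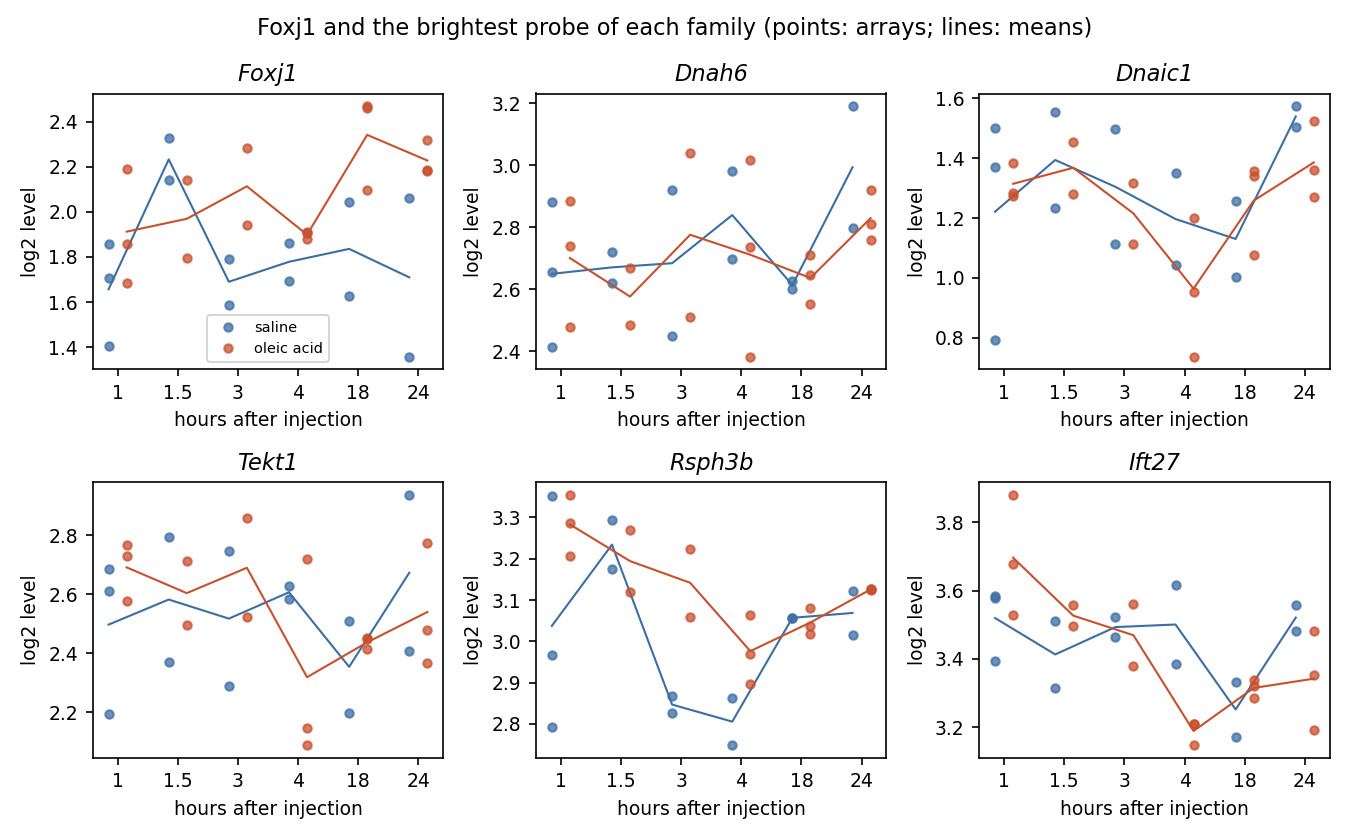
Levels (log2 of processed signal minus the array's 75th percentile) of Foxj1 and of the brightest probe of each family against hours after injection; points are arrays, lines join group means, blue is saline and red is oleic acid. Foxj1 of oleic acid lungs lies between 2.10 and 2.47 at 18 and 24 h, above the saline lungs of the same time.

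No member was called at any single time, beside a near absence of calls on the array as a whole. At 1 h 0 of 37 members were called (0% of all features). An unadjusted p under 0.05 was reached by 4 members (10.8%), against 4.51% of features, and the difference was above 0 for 33 members, against 57.4% of features. The saline arrays of 1 h were not alike. Dbp, a gene of the daily clock, measured 1.13, 1.73 and 5.91 in them, against 5.67 to 6.00 in oleic acid lungs. In the same order the mean deviation of the 24 Dnah, Dnaic, Tekt and Rsph genes was -0.28, -0.11 and 0.06, against 0.07 to 0.15. The part of this mismatch in the 1 h differences was not tested. The 1.5 h comparison called 0 members (0% of features). There 0 members reached an unadjusted p under 0.05, against 1.33% of features, and 15 were above 0, against 47%.
At 3 h 0 members were called (0% of features), 4 (10.8%) had an unadjusted p under 0.05 against 6.56% of features, and 28 were above 0 against 47.9%. The 4 h comparison called 0 members against 0.0172% of features, and 1 member reached an unadjusted p under 0.05 against 8.16%. At that time 11 members were above 0, against 39.2% of features.
The 18 h comparison called 0 members (0% of features). There 1 member reached an unadjusted p under 0.05 against 1.92% of features, and 27 were above 0 against 48.9%. At 24 h 0 members were called against 0.0129% of features, 2 had an unadjusted p under 0.05 against 4.87%, and 20 were above 0 against 35.8%. The median differences of the 37 members were 0.20, -0.04, 0.15, -0.12, 0.10 and 0.02 in order of time. Over all features the medians were 0.04, -0.01, -0.02, -0.09, -0.01 and -0.11. Within slide 2 the member medians were 0.02 at 1.5 h and 0.09 at 3 h. That slide held 1 saline array of 1.5 h and 1 oleic acid array of 3 h. The sign at 1.5 h thus differed from the full fit, where slide and the saline arrays used changed together and cannot be told apart.

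**Figure D2:**
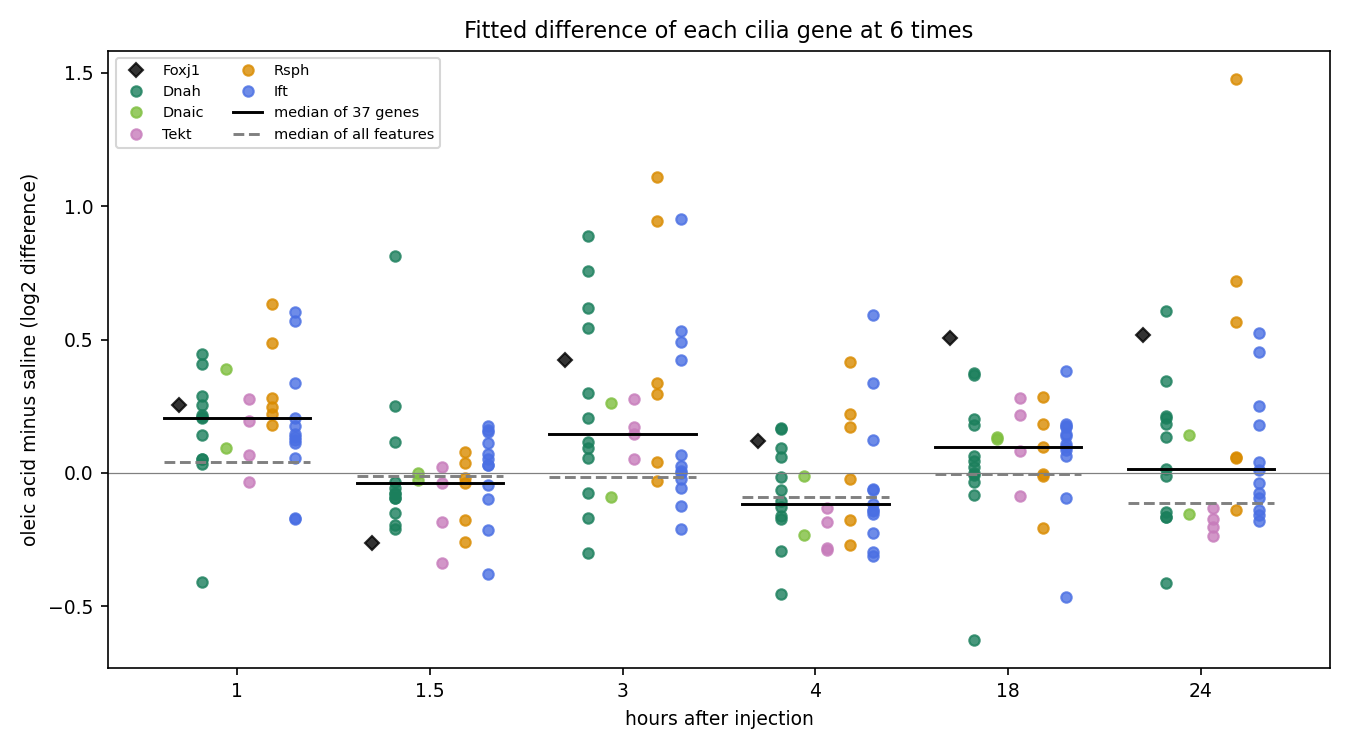
Fitted oleic acid minus saline difference (log2) of each of the 37 genes at 6 times, coloured by family; black bars are the median of the 37 genes and dashed grey bars the median of all 23192 features. The black bar lies highest at 1 h, at 0.20, and lowest at 4 h, at -0.12.

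Genes whose treatment groups did not overlap were also counted at each time. At 1 h oleic acid lay higher without overlap for 2 members (3.36% of features) and lower for 0 (1.29%). At 1.5 h it lay higher for 4 (11.3%) and lower for 4 (12.6%). At 3 h oleic acid lay higher for 12 members (32.4% of them, against 17.6% of features) and lower for 1 (18.5%).
At 4 h oleic acid lay higher for 2 members (8.12% of features) and lower for 3 (14.8%). At 18 h it lay higher for 6 (16.2% of them, against 5.83%) and lower for 1 (6.3%). At 24 h it lay higher for 7 (18.9% of them, against 5.92%) and lower for 3 (15.9%). With 2 arrays on each side at 1.5 and 3 h, groups separate more often than at times with more arrays, as the shares over all features show. The 3 h counts rest on oleic acid arrays of slides 2 and 3, and the 18 h counts compare slide 4 with slide 3.
Across the 6 times, 5 members had a difference above 0 every time (Dnah1, Dnah9, Ift57, Ift74 and Ift88), and Dnah17 was below 0 every time. The share of all features with 1 sign at every time was not counted, so these numbers are description only. Dnah1 and Dnah17 were dim, with mean levels of -3.71 and -3.09. Pooled over 1 to 4 h, 0 members were called (0% of features). An unadjusted p under 0.05 was reached by 8 members (21.6%), 7 of them on the higher side, against 7.94% of features. Over 18 and 24 h 0 were called (0%), and 3 (8.11%) had an unadjusted p under 0.05, against 2.85%. The late difference was above 0 for 23 members, against 37.9% of features.

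**Figure D3:**
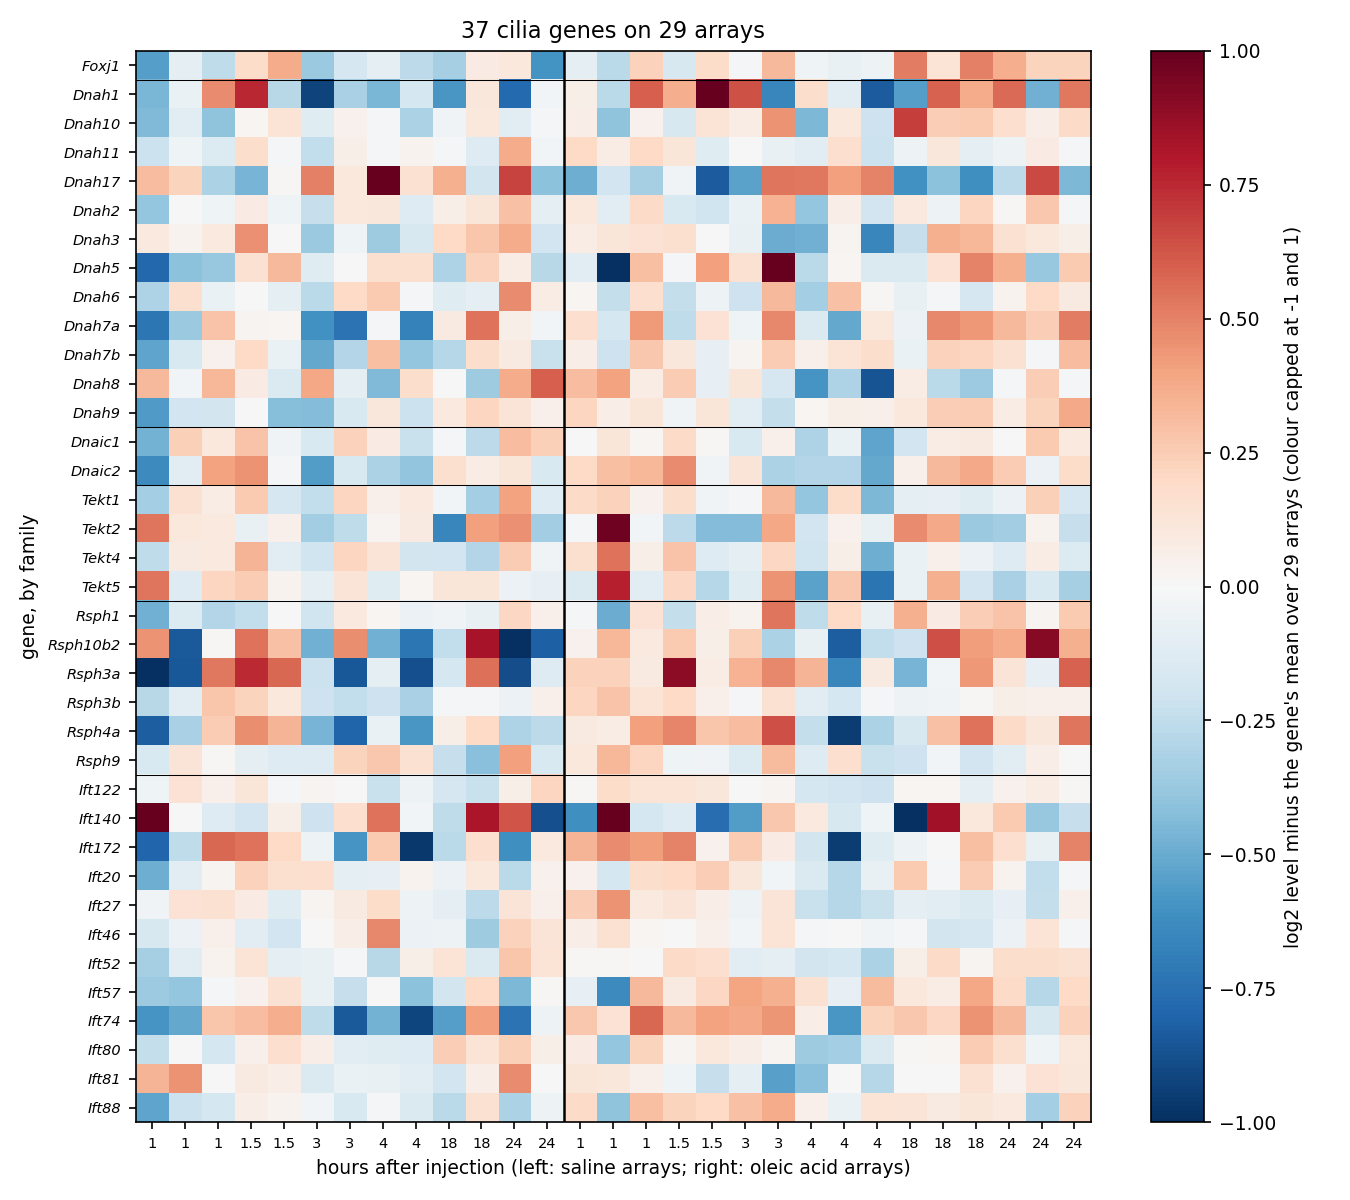
Level of each of the 37 genes on each of the 29 arrays as the difference from the gene's own mean (log2), with saline arrays left and oleic acid arrays right of the vertical line, in order of hours after injection. Within groups Ift140 varies most (SD 0.711) and Ift122 least (SD 0.0709).

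Among the 12 dynein heavy chains, the motors of the arms, the early differences of Dnah9 and Dnah7a were on the higher side. Dnah6, an inner arm chain and the brightest probe of the family, measured 2.41, 2.88 and 2.65 in saline and 2.74, 2.48 and 2.89 in oleic acid lungs at 1 h. It measured 2.72 and 2.62 against 2.48 and 2.67 at 1.5 h, and 2.45 and 2.92 against 2.51 and 3.04 at 3 h. At 4 h it measured 2.98 and 2.70 in saline and 2.38, 3.02 and 2.74 in oleic acid lungs. The groups of Dnah6 overlapped at these 4 times.
At 18 h Dnah6 measured 2.60 and 2.63 in saline and 2.65, 2.71 and 2.55 in oleic acid lungs. At 24 h it measured 3.19 and 2.80 against 2.76, 2.92 and 2.81, again with overlap. Its difference was -0.02 (-0.24 to 0.20) over 1 to 4 h and -0.07 (-0.37 to 0.23) over 18 and 24 h.
Dnah9, an outer arm chain, was shown for its low early saline values, a choice made after its values were seen. At 1 h it measured -1.45, -1.07 and -1.07 in saline and -0.67, -0.82 and -0.76 in oleic acid lungs, without overlap. The difference there was 0.45 (0.16 to 0.74), with an adjusted p of 0.968 in limma, and all 6 arrays were on slide 1. Over 1 to 4 h it was 0.23 (0.06 to 0.39), against 0.09 (-0.14 to 0.32) over 18 and 24 h.
Dnah7a, an inner arm chain, measured -2.03 and -2.16 in saline and -1.47 and -0.94 in oleic acid lungs at 3 h. That difference of 0.89 (0.25 to 1.53) had an adjusted p of 0.683 in limma, and the value was 0.62 within slide 2, which held both saline arrays and oleic acid replicate 1. Dnah7b, its close paralog, differed by 0.54 (0.05 to 1.03) at 3 h. The Dnah7b value was -0.27 with all 31 arrays and -0.17 with the mean of all its probes, so its direction was not stable. Dnah5, an outer arm chain whose loss causes ciliary dyskinesia, measured 0.39 and 0.51 in saline and 0.67 and 1.75 in oleic acid lungs at 3 h. The highest of these came from oleic acid replicate 3, which was the only array of its group on slide 3.
Dnah10, an inner arm chain, lay higher in oleic acid lungs without overlap at 3, 18 and 24 h. At 18 h, where treatment and slide cannot be told apart, it measured 0.53 and 0.68 in saline and 1.26, 0.82 and 0.83 in oleic acid lungs. The late mean difference of Dnah10 was 0.29 (0.00 to 0.57). The heavy chains Dnah8 and Dnah17, best known from sperm, had differences below 0 at several times. Dnah8 had -0.45 at 4 h and -0.41 at 24 h. Dnah17 had -0.63 (-1.43 to 0.18) at 18 h, again with treatment and slide not to be told apart.

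The dynein intermediate chains anchor the outer arms. Dnaic1, the brighter of the pair, measured 0.79, 1.5 and 1.37 in saline and 1.27, 1.39 and 1.29 in oleic acid lungs at 1 h. It measured 1.55 and 1.23 against 1.45 and 1.28 at 1.5 h, and 1.11 and 1.5 against 1.11 and 1.32 at 3 h. It measured 1.35 and 1.04 against 0.95, 1.2 and 0.74 at 4 h.
At 18 h Dnaic1 measured 1.26 and 1.00 against 1.08, 1.34 and 1.36. At 24 h it measured 1.57 and 1.51 against 1.27, 1.53 and 1.36. Neither Dnaic1 nor Dnaic2 had a time without overlap, and the lowest Dnaic1 values were 0.79 in a saline lung of 1 h and 0.74 in an oleic acid lung of 4 h.

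The 4 tektins had differences below 0 at 4 and 24 h and above 0 at 3 h, without any call. At 3 h 4 of 4 were above 0 with a median of 0.16, but within slide 2 the values were 0.0052 for Tekt1, -0.13 for Tekt2, -0.098 for Tekt4 and -0.14 for Tekt5, so the direction at 3 h rested on oleic acid replicate 3, on slide 3. At 4 h 0 of 4 were above 0 with a median of -0.23. At 24 h 0 of 4 were above 0 with a median of -0.19. Tekt1, the brightest, measured 2.58 and 2.63 in saline and 2.15, 2.72 and 2.09 in oleic acid lungs at 4 h, and its groups overlapped at every time.
Its other values in saline lungs were 2.19, 2.69 and 2.61 at 1 h, 2.79 and 2.37 at 1.5 h, 2.29 and 2.75 at 3 h, 2.51 and 2.20 at 18 h, and 2.94 and 2.41 at 24 h. In oleic acid lungs they were 2.73, 2.77 and 2.58 at 1 h, 2.71 and 2.50 at 1.5 h, 2.52 and 2.86 at 3 h, 2.45, 2.45 and 2.41 at 18 h, and 2.48, 2.77 and 2.37 at 24 h. The 2 saline arrays of 24 h lay farther apart than the group means did at any time. Tekt2 followed the share of spots above background, with an r of 0.65 within groups. The part of array quality in the tektin values was not tested.

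The radial spoke genes gave the largest single differences. Rsph10b2 and Rsph4a were singled out after their values were seen. Rsph10b2, a radial spoke gene, measured -3.29 and -3.06 in saline and -1.87, -1.33 and -1.89 in oleic acid lungs at 24 h. The groups did not overlap, all 5 arrays were on slide 4, and the difference was 1.48 (0.70 to 2.26), with an adjusted p of 0.806 in limma. With normexp background correction it was 0.62, and within groups this probe followed the share of spots above background with an r of 0.47. At 1.5 h its difference was -0.26 (-1.12 to 0.60), with all oleic acid arrays lower.
Rsph4a, a spoke head protein, measured -1.25 and -1.59 in saline and -0.48 and -0.14 in oleic acid lungs at 3 h. The difference was 1.11 (0.48 to 1.74), with an adjusted p of 0.683 in limma, and within slide 2 it was 0.94. A second Rsph4a probe, above background on all arrays, had a smaller difference of 0.51 at 3 h. Rsph3b, the brightest of the family and a spoke stalk gene, measured 2.87 and 2.83 against 3.06 and 3.22 at 3 h.
Its other values in saline lungs were 2.79, 2.97 and 3.35 at 1 h, 3.29 and 3.17 at 1.5 h, 2.86 and 2.75 at 4 h, 3.06 and 3.06 at 18 h, and 3.02 and 3.12 at 24 h. In oleic acid lungs they were 3.29, 3.36 and 3.21 at 1 h, 3.27 and 3.12 at 1.5 h, 2.97, 2.90 and 3.06 at 4 h, 3.02, 3.04 and 3.08 at 18 h, and 3.13, 3.12 and 3.13 at 24 h. At 3, 4 and 24 h all oleic acid arrays lay above the saline arrays. The lowest saline values were 2.75 at 4 h and 2.79 at 1 h. The difference over 1 to 4 h was 0.17 (0.03 to 0.31), but -0.03 with all 31 arrays.

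As a median, intraflagellar transport genes varied less between arrays of a group than the members as a whole. Their spread within groups had a median of 0.165 (SD, 12 genes), against 0.223 for the 37 members and 0.298 for all features. Ift122 of complex A, which carries cargo back to the cell body, had the lowest spread of the members at 0.0709. Ift140, of the same complex and dim, had the highest at 0.711, and it followed the share of spots above background with an r of 0.78 within groups.
Ift27, a small GTPase of complex B and the brightest of the family, measured 3.62 and 3.38 in saline and 3.21, 3.15 and 3.21 in oleic acid lungs at 4 h. The groups did not overlap, and the difference was -0.31 (-0.58 to -0.04), with an adjusted p of 0.609 in limma. Its other values in saline lungs were 3.40, 3.58 and 3.59 at 1 h, 3.51 and 3.31 at 1.5 h, 3.46 and 3.52 at 3 h, 3.33 and 3.17 at 18 h, and 3.56 and 3.48 at 24 h. In oleic acid lungs they were 3.68, 3.88 and 3.53 at 1 h, 3.56 and 3.49 at 1.5 h, 3.38 and 3.56 at 3 h, 3.34, 3.32 and 3.28 at 18 h, and 3.35, 3.19 and 3.48 at 24 h. Oleic acid lungs were thus high at 1 h and low at 4 h, and saline lungs were low at 18 h. The oleic acid arrays of 1 h were on slide 1 and those of 4 h on slide 3, so time and slide cannot be told apart. Within slide 3, Ift27 of saline 18 h minus saline 4 h was -0.25.
Ift74, a core gene of complex B, was singled out after its values were seen. At 3 h it measured 0.07 and -0.51 in saline and 0.70 and 0.76 in oleic acid lungs, a difference of 0.95 (0.25 to 1.66) that was 0.92 within slide 2. Over 1 to 4 h its difference was 0.54 (0.21 to 0.88), with an adjusted p of 0.621 in limma, and over 18 and 24 h it was 0.45, with an interval that reached 0. Ift57 and Ift88, also of complex B, had early means of 0.26 (0.01 to 0.51) and 0.26 (0.05 to 0.47). Ift81, the binding partner of Ift74 in complex B, went the other way, with -0.18 over 1 to 4 h.

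The late times were then compared with the early ones within each treatment. Comparing saline lungs of 18 and 24 h with those of 1 to 4 h called 0 members against 2.95% of features, and 3 had an unadjusted p under 0.05 against 15.3%. The difference was above 0 for 20 members, against 50.7% of features. The closest was Dnah9, with a difference of 0.34 (0.13 to 0.55) and an adjusted p of 0.077 in limma. Its saline values were -0.88 and -1.31 at 1.5 h, -1.32 and -1.03 at 3 h, -0.77 and -1.10 at 4 h, -0.79 and -0.67 at 18 h, and -0.75 and -0.83 at 24 h. Within slide 3, saline 18 h minus saline 4 h was 0.21. Late saline arrays were on slides 3 and 4 and early ones on slides 1 to 3, so time and slide are partly confounded.
The same comparison among oleic acid lungs called 0 members against 5.82% of features, and 5 had an unadjusted p under 0.05 against 20.8%. These were Foxj1, Ift52, Dnah10, Ift81 and Dnah9, all on the higher side, and Foxj1 had 0.31 (0.06 to 0.56) with an adjusted p of 0.132 in limma, which was 0.0228 with array weights and up to 1 in other settings. Every late oleic acid array was on slide 4 and no early one was, so time and slide cannot be told apart there. The change of the treatment difference between early and late times called 0 members (0% of features), and 1 member (Rsph10b2) reached an unadjusted p under 0.05 against 1.13%. It was above 0 for 15 members, against 40.4% of features.
Tests of any difference over the 6 times also called no member. The times were spread over different slides, so in the tests within a treatment time and slide cannot be fully told apart. Within saline lungs 0 members were called against 5.61% of features, and 3 had an unadjusted p under 0.05 against 25.3%. Within oleic acid lungs 0 were called against 5.5%, and 6 had an unadjusted p under 0.05 against 21.2%, led by Ift27 with an adjusted p of 0.0709 in limma. For any treatment difference at the 6 times 0 were called (0% of features), and 4 (Foxj1, Ift74, Rsph4a and Rsph10b2) had an unadjusted p under 0.05, against 3.3%.

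Members were also compared with each other within groups, as Pearson r over 29 arrays after subtraction of the group means, where the points share array, scaling and labelling. The median r over 666 pairs was 0.10, so the 37 genes did not behave as 1 block. Motility genes among themselves had a median of 0.16, and intraflagellar transport genes among themselves -0.09. The 4 tektins stood closer, with a median of 0.52, and Dnaic1 with Dnaic2 had 0.60.
The closest pairs lay both within and across the families. Ift172 with Rsph3a had 0.91, Dnah2 with Dnah6 had 0.88, Ift57 with Ift88 had 0.86, Rsph3a with Rsph4a had 0.86 and Dnah10 with Rsph1 had 0.85. Tekt1 with Tekt4 had 0.83. The lowest pair was Dnah1 with Dnah17, at -0.75.
By the same measure the members most like Foxj1 were Rsph1 at 0.68, Dnah5 at 0.67, Dnah2 at 0.65, Dnah6 at 0.59, Dnah7b at 0.51 and Dnah10 at 0.51. These 6 of 36 members passed 0.5, against 3.24% of 22903 features. Dnah8 was the most opposed, at -0.58. Between Foxj1 and the share of spots above background r was -0.11.

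**Figure D4:**
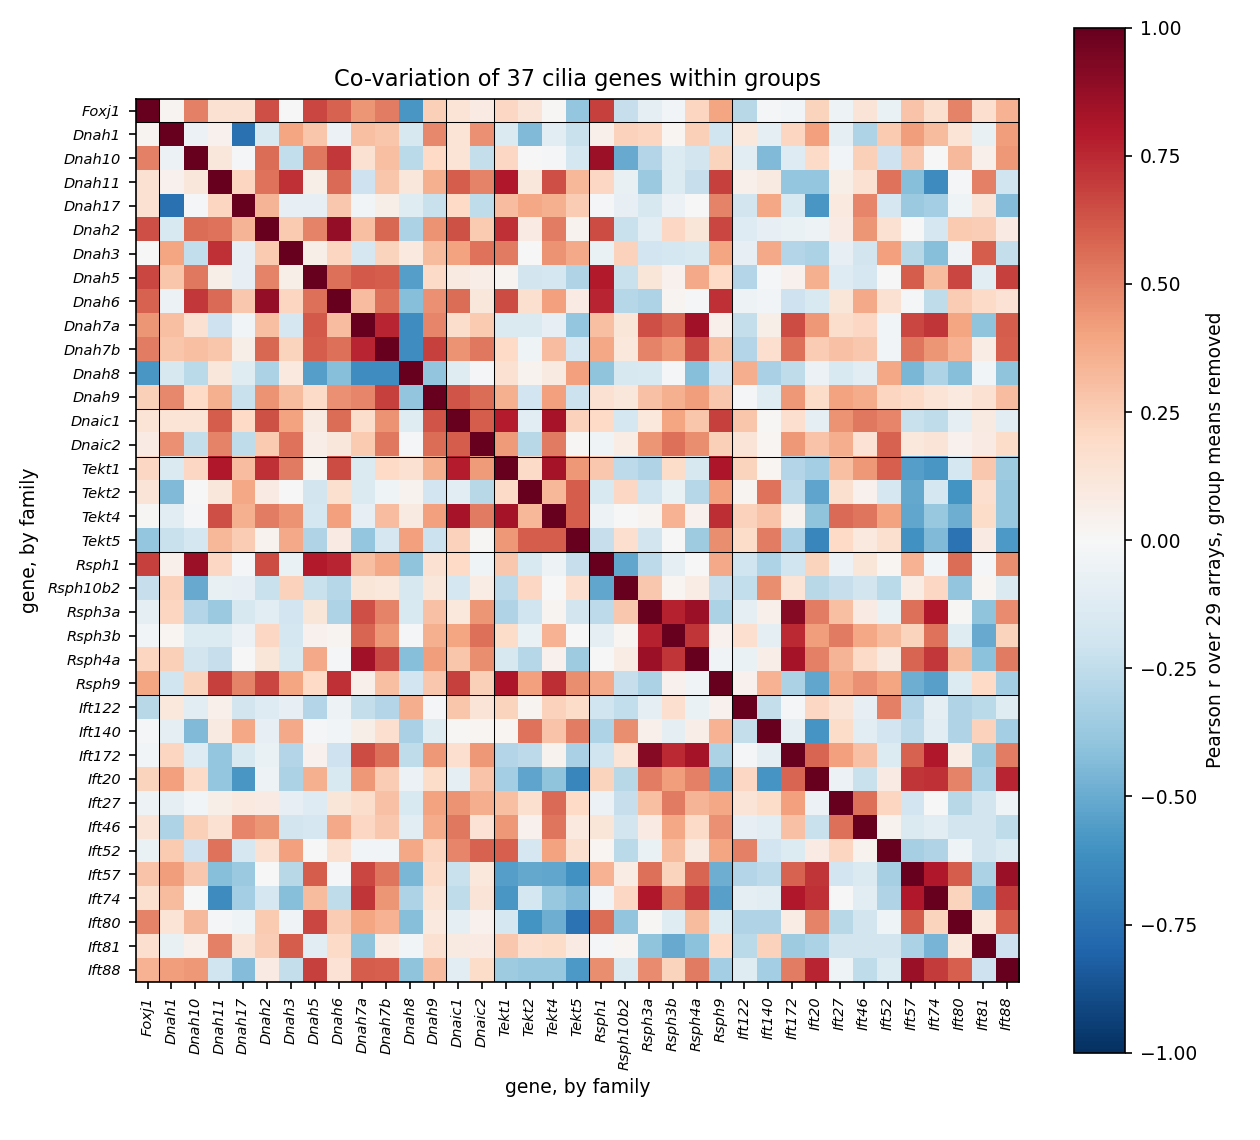
Pearson r between the 37 genes over 29 arrays after removal of group means, with lines between the families; red is positive and blue negative. The tektin block is positive throughout, while Foxj1 has its strongest red cells with Rsph1, Dnah5 and Dnah2 and a blue one with Dnah8.

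Probes of 1 gene did not always agree. Of the 39 genes 27 had 1 probe, and 6 kept genes had another probe above background on all arrays. Within groups the second probe followed the first with r of 0.94 for Tekt1, 0.52 for Rsph4a, 0.30 for Ift122, 0.18 for Dnah7b, 0.01 for Ift46 and -0.22 for Rsph1. Values of Dnah7b, Ift46 and Rsph1 therefore depend on the probe chosen, as does the size of the Rsph4a difference at 3 h. Dnah7a with Dnah7b and Rsph3a with Rsph3b are close paralogs whose signals may be shared, and their r within groups were 0.76 and 0.77.

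Other genes of the programme were taken from lists. Regulators of ciliogenesis (19 of 27 listed were tested) had 0 called in each treatment comparison at single times. In late against early oleic acid lungs 2 of 19 were called higher, against 5.82% of features called. They were Ccdc78, a gene of centriole amplification, with 0.34 (0.17 to 0.52, adjusted p = 0.0192 in limma) and E2f4, a transcription factor of the multiciliated programme, with 1.52 (0.79 to 2.26, adjusted p = 0.0138 in limma). E2f4 was dim, its call ended in 5 of 14 other settings, and its difference was 0.38 with normexp background correction. Ccdc78 lost its call in 3 of 14 other settings.
Of other axoneme and dynein assembly genes 56 of 84 listed were tested, and 0 were called in the treatment comparisons at single times. The median oleic acid minus saline difference was 0.29 at 1 h and 0.36 at 3 h, with 48 and 45 of 56 above 0. At 1.5 h it was -0.04, with 22 of 56 above 0. At 4 h it was -0.02 and at 18 and 24 h it was 0.10 and 0.11.
In late against early oleic acid lungs Riiad1 (0.41), Ccdc103 (0.41) and Ccdc39 (0.40) were called higher and Lrriq1 (-1.11) lower, that is 4 of 56 against 5.82% of features. Ccdc103 and Ccdc39 act in the attachment of dynein arms and in the ruler that spaces them. The calls ended in 5 of 14 other settings for Riiad1, 6 for Ccdc103, 11 for Ccdc39 and 8 for Lrriq1. Lrriq1 was dim, at -6.24 to -2.81 over the arrays, and its difference ran from -1.34 to -0.37 in those settings. In saline lungs 1 of 56 was called, against 2.95% of features. It was Wdr78, a dynein arm gene, with 0.52 (0.24 to 0.81), and it lost its call in 8 of 14 other settings.
The remaining transport and BBSome genes (33 of 36 listed were tested) had medians of 0.17 at 1 h, 0.26 at 3 h and 0.18 at 4 h, with 30, 30 and 21 of 33 above 0. At 1.5, 18 and 24 h the medians were 0.01, 0.11 and 0.15, with 19, 24 and 26 above 0. At each of the 6 times 0 were called. Ttc21b, a complex A gene, was called higher in late oleic acid lungs with 0.55 (0.27 to 0.83, adjusted p = 0.0179 in limma), and so was Ttc30a1, a complex B gene, with 0.45. These were 2 of 33, near the 5.82% of all features called. In late saline lungs Bbs12, a BBSome assembly gene, was called with 0.69 (0.36 to 1.01, adjusted p = 0.0215 in limma). It was 1 of 33, near the 2.95% of all features called. In other settings the calls ended in 3 of 14 for Ttc21b, 8 for Ttc30a1 and 5 for Bbs12. With 1 array left out at a time, over 29 arrays, the calls ended 3 times for Ttc21b, 9 for Ttc30a1 and 4 for Bbs12. They ended 2 times for Ccdc78, 1 time for E2f4, 3 for Riiad1, 11 for Ccdc103, 23 for Ccdc39, 21 for Lrriq1 and 18 for Wdr78. For the calls among oleic acid lungs, time and slide cannot be told apart.

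Within groups the mean of the motility genes moved with that of some other airway cell lists. As the mean deviation of the 24 motility genes on each array, they were lowest in saline 1 h replicate 1 (-0.28) and highest in oleic acid 3 h replicate 3 (0.20). Within groups this mean had an r of 0.73 with the other axoneme genes, 0.72 with 14 club cell genes and 0.73 with 12 goblet and gland cell genes, over 29 arrays that share scaling. With endothelial genes r was -0.46. The club cell mean had the same lowest and highest arrays as the motility mean, at -0.32 and 0.29. Saline 1 h replicate 1 was among the 5 arrays with most spots above background (81.7%). Oleic acid 3 h replicate 3 was the only array of its group on slide 3. What these arrays contribute to the r values was not tested.
At 3 h the motility mean was -0.26 and -0.08 in saline and 0.00 and 0.20 in oleic acid lungs. The club cell list ranged from -0.17 to 0.00 in saline and from 0.02 to 0.29 in oleic acid lungs at that time, and the goblet and gland list from -0.72 to 0.02 and from 0.37 to 0.67. At 18 h the motility mean ranged from -0.08 to 0.07 in saline and from -0.06 to 0.15 in oleic acid lungs, with the club list at -0.16 to 0.00 and -0.15 to -0.01. The club and the goblet and gland lists thus separated the treatments at 3 h in the direction of the motility genes, the club list only from 0.002 to 0.015. The highest oleic acid value of both lists and of the motility mean came from replicate 3, the only array of its group on slide 3. The airway smooth muscle list overlapped at 3 h (0.02 to 0.28 in saline and 0.08 to 0.38 in oleic acid lungs) and separated at 18 h (-0.31 to -0.28 and -0.26 to 0.17). That 18 h separation cannot be told apart from slide. The alveolar type 1, alveolar type 2 and endothelial lists lay lower in oleic acid lungs without overlap at 3 h, the endothelial list at -0.20 to 0.06 against 0.23 to 0.30. At 24 h the motility mean of every oleic acid lung was above that of the saline lungs, by a margin of under 0.01, while the mean of the club list was 0.05 in oleic acid and 0.11 in saline lungs. The goblet and gland list also lay higher in oleic acid lungs at 24 h (0.17 to 0.34 against -0.06 to 0.02). It lay higher without overlap at 4 h too (-0.27 to 0.08 against -0.62 to -0.34). There the motility mean went the other way with overlap, at -0.17 in oleic acid and -0.09 in saline lungs. The airway basal cell list separated at 3 h (-0.03 to 0.52 in oleic acid and -0.50 to -0.08 in saline lungs).
The amount of airway in each lung sample was not measured, and its part in these values was not tested. Of the club cell genes 0 of 14 were called in the treatment comparisons at single times, and Scgb1a1, the main club cell secretory protein, had -0.24 (-0.52 to 0.04) over 1 to 4 h. At 3 h Scgb1a1 went against the mean of its list without overlap, at 10.15 and 10.47 in saline and 9.67 and 10.14 in oleic acid lungs. The mean of the 12 intraflagellar transport genes followed the motility mean with r of 0.47 within groups and the other transport and BBSome genes with 0.91.

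**Figure D5:**
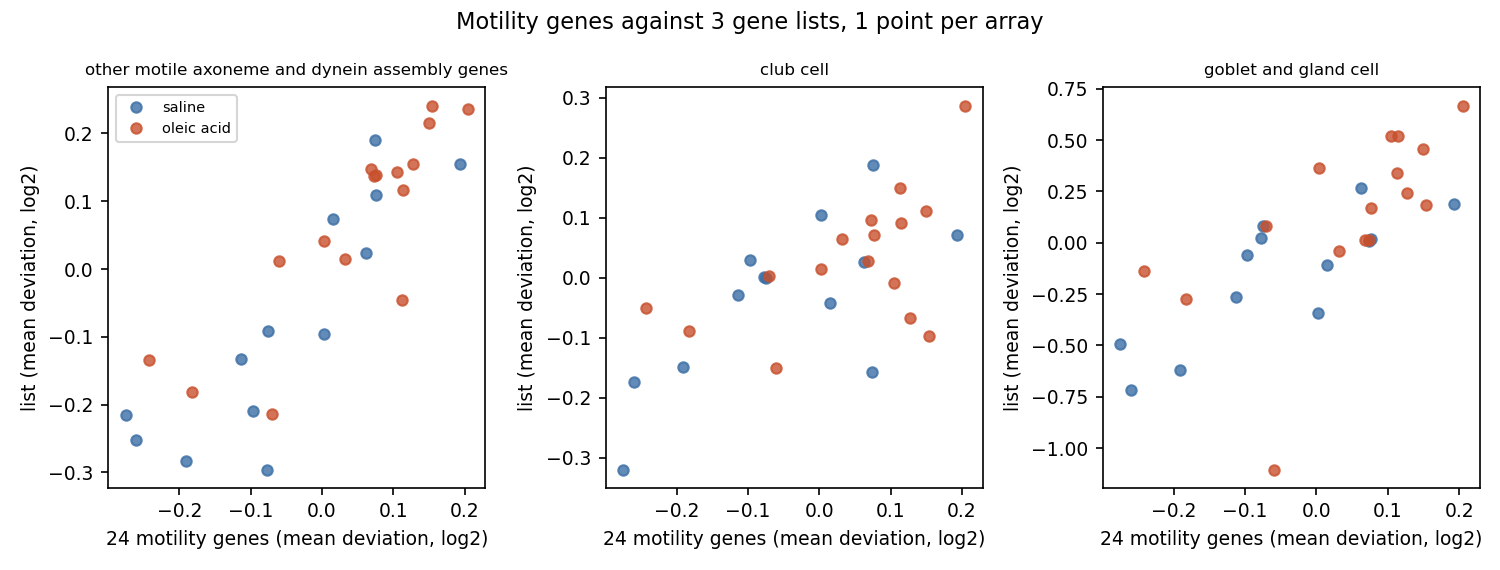
Mean deviation (log2) of 24 motility genes on each array against that of 56 other axoneme genes, 14 club cell genes and 12 goblet and gland cell genes; each point is an array, blue saline and red oleic acid. Within groups r is 0.73, 0.72 and 0.73.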

How the data were processed

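Per the file headers, each scanner file of the authors (Agilent Feature Extraction 10.5.1.1, per the submitters' processing notes) holds an intensity per spot, already corrected for background, and other flags of 0 or 1. The authors' deposited table holds log2 values, and its sorted columns differ by at most 0.0179. From the scanner files, in R 4.3.3, outlier spots were left out, spots of 55681 probes were averaged, and log2 minus the 75th percentile was fitted in limma 3.58.1 as 12 group means. Each gene had its brightest probe, well above background on at least 0.5 of 29 arrays, which left 23192 features. There were 11 comparisons and 3 F tests, with a threshold of 0.05. The members and lists were chosen with earlier results of these data known. All members could be named, and every-array values were due for Foxj1 and the brightest member of each family. From other lists up to 4 genes with the smallest p were named. Alternatives are listed in the closing section, and the fit was tested on simulated data. Older array names were updated through RefSeq accessions or synonyms, except Rsph10b2, which had no match.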

Additional observations from a re-analysis of the deposited data

Results flagged for a closer look

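For 3 of 37 members every oleic acid array lay above every saline array at 1 time and below at another (8.11%, against 15.4% of all features), and the change between times was not tested. Dnah5 had a difference of 0.76 at 3 h and -0.29 at 4 h. Ift52 had 0.15 at 1.5 h and -0.06 at 3 h. Rsph10b2 had 1.48 at 24 h and -0.26 at 1.5 h.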

How the results depend on the processing

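Every result was recomputed under 15 other settings and with each of 29 arrays left out. With all 31 arrays the median over members was -0.35 at 3 h (all features -0.31), 0.19 for late against early oleic acid lungs and 0.14 for the change of the treatment difference. Dnah7b at 3 h reversed to -0.27 there, and to -0.17 with the mean of all probes, and Rsph3b over 1 to 4 h reversed to -0.033 with all 31 arrays. Centring on the array median moved the median of all features by up to 0.31 and that of members to 0.25 at 1.5 h, -0.026 at 3 h, 0.40 at 18 h, 0.19 at 24 h, 0.27 over 18 and 24 h, -0.23 for late against early saline lungs and 0.20 for the change of the treatment difference. Relative to all features these were -0.02, 0.16, 0.10, 0.13, 0.09, 0.04 and 0.02. Ift80 in late against early saline lungs reversed to -0.062 under it. At 24 h the median was 0.13 with quantile normalization and 0.12 in the deposited table.

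Members were called within saline lungs over time in 1 case (Rsph3a) with the mean of all probes. Within oleic acid lungs 2 (Dnah8 and Ift27) were called with slide as a random block and 1 (Ift27) with trended and robust moderation. The main fit called 5.61% of features within saline and 5.5% within oleic acid lungs, so these counts are not read as a result about the members. Array weights, whose estimation stopped before it converged, called 13 members at 1 h (24.2% of features), 4 in late against early oleic acid lungs (15.8%), 7 within saline (24.7%), 24 within oleic acid lungs (53.7%) and 8 for any treatment difference (7.67%).

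Replicate numbers are shared between groups, but same-numbered arrays of a time had a median r of 0.15 and 6 of 12 pairs passed 0.1, so they were not taken as pairs. The replicate block called 1 member (Rsph4a) within oleic acid lungs, a test that called 5.5% of features in the main fit.

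Leaving out 1 array moved the 3 h median between 0.057 and 0.29, lowest without saline 3 h replicate 1 and highest without oleic acid 3 h replicate 1, and it was 0.27 without saline 3 h replicate 2. The 4 h median ran from -0.16 to -0.0074 (without saline 4 h replicate 1). The 18 h median ran from -0.0053 (without saline 18 h replicate 1) to 0.15. The 24 h median ran from -0.018 (without saline 24 h replicate 2) to 0.14 (without saline 24 h replicate 1). Calls in late against early saline lungs ranged from 0 to 1, with Dnah9 called without saline 4 h replicate 1. Slide as a fixed term could not be fitted for 18 h and for comparisons across slides. The fit without the 5 arrays with most spots above background was chosen after seeing the data. Groups of 2 or 3 arrays limit the precision.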
